A study of Homo sapiens with 16 samples.

Results

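The 10 genes described here are the signal transducers STAT3, STAT5A and STAT5B, 4 members of the SOCS family of feedback inhibitors (CISH, SOCS1, SOCS2 and SOCS3) and the kinases PIM1, PIM2 and PIM3. They were chosen by symbol, and all 10 were found among the 34618 genes of the deposited count table. Polyadenylated RNA was sequenced from 2 human acute myeloid leukaemia cell lines in 4 groups of 4 libraries each: U937 with NEL, U937 with DMSO, KG1A with NEL and KG1A with DMSO. NEL was given at 10 µM and DMSO was its vehicle. The time of treatment is not given in the sources used here, and the labels do not spell NEL out. It is read here as the purine nucleoside analogue nelarabine, as known from the publication. U937 is a promonocytic line and KG1A an immature line that carries a rearranged FGFR1 gene, each a single established culture of malignant cells. All 4 groups grew in RPMI medium with dialyzed serum. The series asks how a disturbed deoxynucleotide balance affects the block of differentiation in this leukaemia.

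Cytokine receptors without enzyme activity of their own bind JAK kinases, which phosphorylate STAT proteins on a tyrosine. The phosphorylated STATs pair, enter the nucleus and bind short palindromic DNA elements near their target genes. STAT5A and STAT5B act downstream of interleukin-3, GM-CSF and related myeloid cytokines, and STAT3 downstream of interleukin-6, G-CSF and interleukin-10. CISH, SOCS1, SOCS2 and SOCS3 are classical targets that feed back on the receptors and JAKs. PIM kinases are targets as well, are active without a phosphorylation step, and support survival and translation in myeloid leukaemia. Transcript levels, the only measure here, do not report STAT phosphorylation.

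The libraries held 10641567 to 11777684 counts each, and the upper limit set by 0 counts, for counting error only, was 0.255 to 0.282 CPM (counts per 1000000, scaled here with TMM factors over all 16 libraries). CD34 and FGFR1 fitted the label of KG1A, at 974 and 223 CPM with NEL and 889 and 201 CPM with DMSO, whereas HLA-DRA, fixed as a KG1A marker, had at most 1 count in a KG1A library. Of the 8 U937 markers, CD33, LYZ, CD4, ELANE and AZU1 averaged above 70 CPM in both U937 groups and below 1.2 CPM in both KG1A groups. MPO stayed below 0.5 CPM in all 4 groups. Other lineages were not silent. Of 5 T lymphoid markers, 2 were abundant enough to be tested in KG1A. CD3D, 1 of these, averaged 108 CPM in KG1A with NEL and 118 CPM with DMSO, while CD3G, CD2 and CD5 stayed below 0.4 CPM there. In U937 the B lymphoid gene CD79A was at 6.59 CPM with NEL against 1.54 CPM with DMSO (log2 fold change 2.09 ± 0.23, edgeR adjusted p = 2.08e-06), PAX5 was at 22.4 and 19.4 CPM and not called (edgeR adjusted p = 0.0678), and MS4A1 and CD79B stayed below 0.5 CPM. In KG1A PAX5 was at 9.76 CPM with NEL against 5.99 CPM with DMSO (edgeR adjusted p = 2.84e-04). CD79A went the other way there, at 0.701 CPM with NEL against 1.30 CPM with DMSO, with overlapping groups (log2 fold change -0.89 ± 0.33, edgeR adjusted p = 0.0387). It had at least 10 counts in 1 NEL library and 3 DMSO libraries of KG1A. The part of these genes in the results was not tested. HBA1, HBA2, HBB and HBG1 had 0 counts in every library. Within each line the first principal component separated NEL from DMSO libraries (88.5% of the variance in U937 and 71.5% in KG1A), and the second set libraries 1 and 3 of each group apart from libraries 2 and 4 (5.88% and 13.8%). No label names a batch or states that the 4 libraries of a group are separate cultures. The p-values therefore refer to a spread between libraries that may be technical, and NEL effects are also given for the odd-numbered (odd) and the even-numbered (even) libraries alone. STAT3 and STAT5B were higher in the even-numbered libraries of all 4 groups, and SOCS1, PIM1, PIM2 and PIM3 in the odd-numbered ones. The largest such gap was in SOCS1, at up to 0.51 on the log2 scale.

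Transcripts of 9 of the 10 genes were lower in U937 than in KG1A, with NEL and with DMSO, and PIM3 was the single one higher. With NEL the log2 fold changes of U937 over KG1A ran from -2.93 for SOCS3 to 1.64 for PIM3, and with DMSO from -3.39 to 2.10 for the same genes. The libraries of the lines did not overlap for any of the 10 genes in either treatment, and all 10 were called in each comparison (quasi-likelihood F test of edgeR, p adjusted by the Benjamini-Hochberg method and under 0.05). The difference between lines touches most of the transcriptome: with NEL, 85.1% of the 15602 tested genes were called, 42.9% lower in U937 and 42.3% higher, and with DMSO 86.4% of 15181, 43.4% lower and 43% higher. Libraries of the lines did not overlap for 80.6% of all tested genes with NEL and 81.6% with DMSO. The members' median log2 fold change was -2.02 with NEL and -1.90 with DMSO, beside medians of -0.01 and 0.00 over all genes tested. All 10 passed the filter on low counts in every comparison. For SOCS3, of which only 2 U937 libraries with DMSO reached the level of that filter, the comparison of lines with DMSO was made through KG1A, where it was higher, and its SE of 0.24 was the largest of the 10. All 10 were also called in the same direction within the odd-numbered and within the even-numbered libraries. With 1 line of each kind, nothing separates these differences from other properties of the lines.

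**Figure D1:**
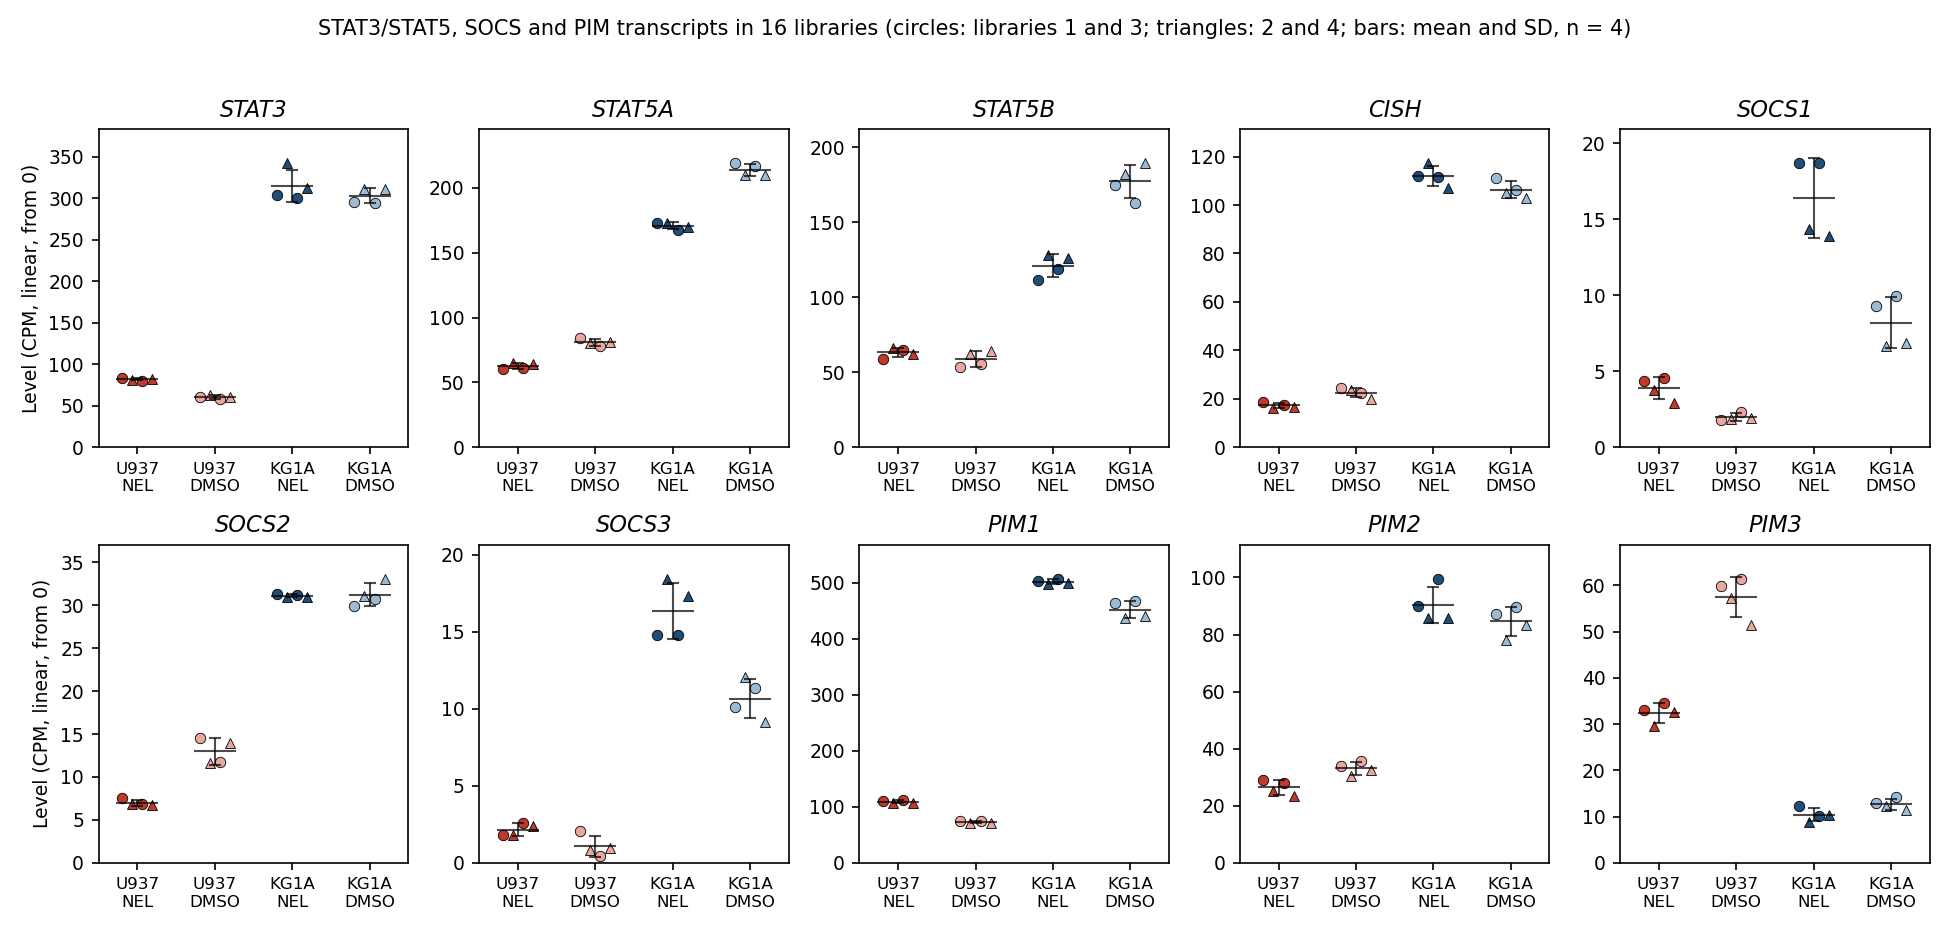
Level of each of the 10 transcripts (vertical axes, CPM, linear and from 0) in the 16 libraries of the 4 groups (horizontal axes). Circles are libraries 1 and 3, triangles libraries 2 and 4, and bars the mean and SD of 4 libraries. KG1A libraries lay above all U937 libraries for every gene except PIM3, where they lay below.

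Per length of transcript, PIM1 was the most abundant of the 10 in every group. Its deposited RPKM (reads per 1000 bases of exon and per 1000000 counts) averaged 37.8 in U937 with NEL, 23.6 in U937 with DMSO, 172 in KG1A with NEL and 149 in KG1A with DMSO. In U937 with DMSO, PIM3 at 22.5 RPKM stood beside PIM1, followed by STAT5A (13.6 RPKM), PIM2 (11.6 RPKM), STAT5B (8.78 RPKM) and STAT3 (6.59 RPKM). The feedback inhibitors were the lowest there, with CISH at 4.25, SOCS2 at 1.85, SOCS1 at 1.56 and SOCS3 at 0.379 RPKM. In KG1A with DMSO, STAT5A (36.5 RPKM), STAT3 (33.8 RPKM), PIM2 (30.1 RPKM), STAT5B (27.0 RPKM) and CISH (20.4 RPKM) came after PIM1. SOCS1 (6.56 RPKM), PIM3 (5.05 RPKM), SOCS2 (4.52 RPKM) and SOCS3 (3.83 RPKM) closed that order. PIM3 thus stood second of the 10 in U937 with DMSO and eighth in KG1A with DMSO.

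**Figure D2:**
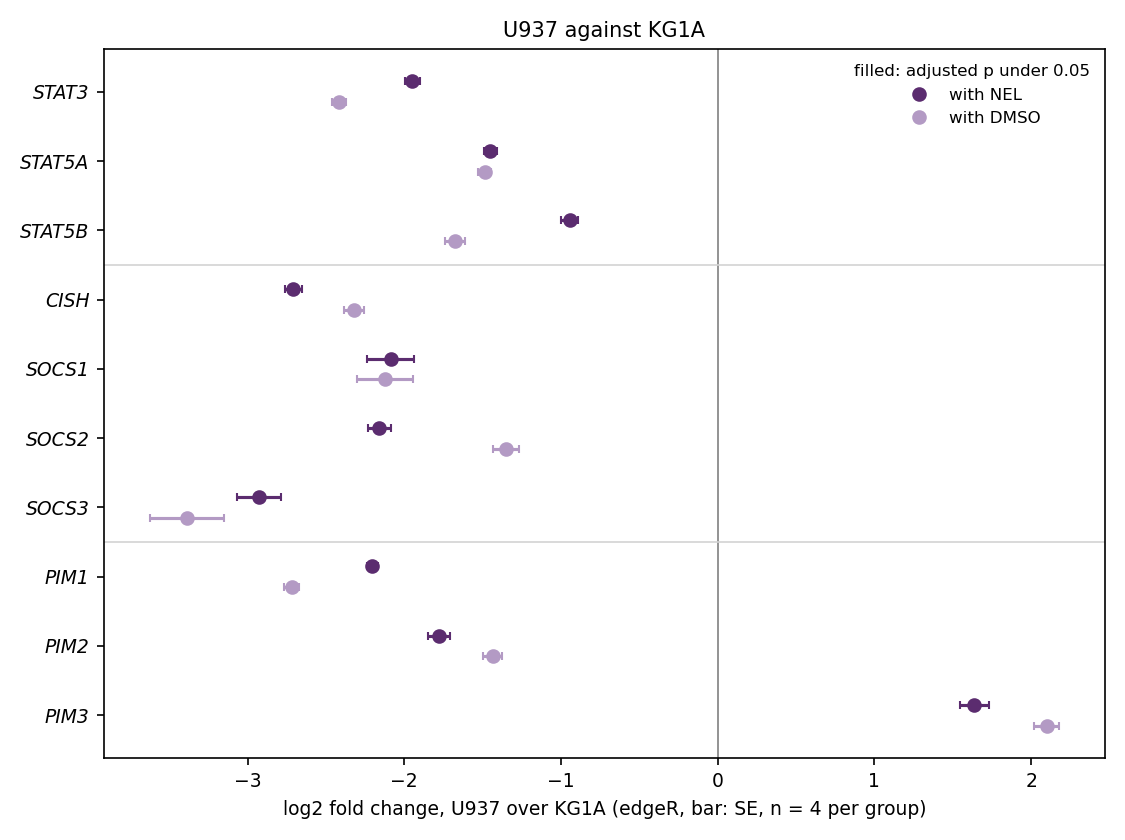
log2 fold change of U937 over KG1A (horizontal axis, edgeR, bars are the SE, n = 4 libraries per group) with NEL (dark) and with DMSO (light) for the 10 genes. PIM3 lies to the right of 0, at 1.64 with NEL and 2.10 with DMSO, and the other 9 lie to the left.

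In U937, NEL raised STAT3, SOCS1, SOCS3 and PIM1 and lowered STAT5A, CISH, SOCS2, PIM2 and PIM3, and STAT5B was not called. Of the 10 genes, each tested with 4 libraries against 4, 4 were called higher and 5 lower. Over all 14390 genes 69.3% were called, 34.6% higher and 34.7% lower. The members' median log2 fold change was -0.11, against 0.00 over all genes, and their median size without sign was 0.52 against 0.38. NEL and DMSO libraries did not overlap for 8 of the 10, against 62.4% of all genes tested. In bulk RNA, a change in every cell and a change in the share of cells that carry a transcript cannot be told apart, here and in the results that follow.

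The genes of the transcription factors lie side by side on chromosome 17 of GRCh37, STAT5B at 40351186 to 40428725 on the minus strand, STAT5A at 40439565 to 40463961 on the plus strand and STAT3 at 40465342 to 40540586 on the minus strand. STAT5A is divergent from STAT5B across 10839 bases and converges with STAT3 across 1380 bases. Their transcripts moved apart in U937. STAT3 had 83.2, 81.2, 80.2 and 82.6 CPM in the libraries with NEL, against 60.4, 62.7, 57.6 and 59.97 CPM with DMSO. Every NEL library was above every DMSO library, and STAT3 rose by 0.45 ± 0.04 on the log2 scale (SE, edgeR adjusted p = 6.48e-07, odd 0.47, even 0.42). STAT5A had 60.5, 65.1, 61.1 and 64.0 CPM with NEL, against 84.4, 80.2, 78.2 and 81.0 CPM with DMSO. The groups did not overlap, and its log2 fold change was -0.37 ± 0.05 (edgeR adjusted p = 6.82e-06, odd -0.42, even -0.31). STAT5B had 58.8, 66.2, 65.1 and 62.3 CPM with NEL, against 53.4, 61.9, 55.3 and 64.2 CPM with DMSO, with overlapping groups. Its log2 fold change of 0.11 ± 0.06 was not called (edgeR adjusted p = 0.154), but was called with the replicate number as a block (0.11, adjusted p = 0.0285) and in the odd-numbered libraries alone (0.19), not in the even-numbered ones (0.03). STAT5A and STAT5B are close paralogs: of the stretches of 50 bases in the GENCODE 29 transcripts of STAT5A, 8.61% also occur in transcripts of STAT5B, so a small part of their reads can be assigned to either or to none.

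CISH encodes an inhibitor that binds the tyrosine-phosphorylated tails of cytokine receptors where STAT5 docks. It is the one member whose promoter window in RefSeq (GRCh38.p14, 250 bases before to 50 after the annotated start) held the STAT element TTCNNNGAA, and it held 4 copies. Of the 10 genes, 9 had at least 1 window. SOCS2 had none and so was not searched. Bases outside these windows were not searched for any gene, so a member without a match may hold the element elsewhere. The element reads the same on both strands, and 7.66% of all 35116 windows hold it at least once and 0.0199% at least 4 times. The window is shown because STAT5 binding to elements of this kind is the textbook route of CISH induction. It lies at chr3:50611725-50612024 on the minus strand, is written 5′ to 3′ along the gene, and has the 4 matches in capitals.
CISH promoter: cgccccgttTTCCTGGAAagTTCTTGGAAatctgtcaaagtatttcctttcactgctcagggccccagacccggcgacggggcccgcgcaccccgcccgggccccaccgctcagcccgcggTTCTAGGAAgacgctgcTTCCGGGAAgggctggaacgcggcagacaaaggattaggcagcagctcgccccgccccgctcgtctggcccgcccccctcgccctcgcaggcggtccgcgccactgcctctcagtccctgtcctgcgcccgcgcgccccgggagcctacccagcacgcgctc
The matches begin 241, 230, 129 and 112 bases upstream of the annotated start and so form a pair of pairs. The same element with 4 in place of 3 bases in its centre, present in 6.44% of windows, matched a single window of a member, one of the 3 of STAT5A. A match is a description of these letters and was not tested as a binding site in these cells.

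CISH had 18.7, 16.01, 17.6 and 16.5 CPM in U937 with NEL, against 24.3, 23.5, 22.5 and 19.8 CPM with DMSO. The groups did not overlap, and CISH fell by 0.39 ± 0.08 on the log2 scale (edgeR adjusted p = 8.51e-04, odd -0.37, even -0.41). SOCS2, which restrains growth hormone signalling and is induced through STAT5, had 7.54, 6.81, 6.88 and 6.71 CPM with NEL, against 14.6, 11.6, 11.7 and 14.0 CPM with DMSO. Its groups were well separated, and it was 1.85-fold lower (log2 fold change -0.89 ± 0.11, edgeR adjusted p = 4.36e-06, odd -0.87, even -0.91). SOCS1 inhibits the catalytic activity of JAKs downstream of interferons. It had 4.33, 3.75, 4.53 and 2.89 CPM with NEL, against 1.79, 1.86, 2.32 and 1.95 CPM with DMSO. All 4 NEL libraries were above the DMSO libraries, a 1.95-fold rise at a low level (log2 fold change 0.97 ± 0.18, edgeR adjusted p = 3.45e-04, odd 1.10, even 0.81). SOCS3, an inhibitor of gp130 and G-CSF receptor signalling, had 1.82, 1.79, 2.61 and 2.38 CPM with NEL, against 2.06, 0.798, 0.447 and 0.974 CPM with DMSO. These values rest on 21 to 30 counts per NEL library and 5 to 23 per DMSO library, and DMSO library 1 lay above the 2 lowest NEL libraries. SOCS3 was called higher (log2 fold change 1.00 ± 0.33, edgeR adjusted p = 0.0152). The odd libraries gave 0.82, not called, and the even ones 1.23. Without U937 DMSO library 1 the change was 1.52 (edgeR adjusted p = 5.41e-04). In U937 all 4 NEL libraries but only 2 of the DMSO libraries reached the count needed by the filter on low values, so SOCS3 was tested there because of the group in which it was higher.

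Neighbouring genes bear on 3 of these values, since whether the counting used strand is not given in the sources used here. SOCS1 overlaps RMI2 on the opposite strand. RMI2, a subunit of a complex that resolves DNA crossovers, itself rose in U937, to 52.6 ± 0.37 CPM with NEL against 36.6 ± 1.11 CPM with DMSO (log2 fold change 0.53 ± 0.05, edgeR adjusted p = 2.64e-07), and in KG1A (0.46 ± 0.05, edgeR adjusted p = 4.96e-06). RMI2 had up to 825 counts in a library, far more than SOCS1, and its part in the SOCS1 values was not tested. CISH overlaps MAPKAPK3, a kinase gene, on the opposite strand, which had up to 4824 counts in a library, far more than CISH, and moved by -0.09 ± 0.04 in U937 without a call (edgeR adjusted p = 0.0685) and by -0.10 ± 0.03 in KG1A (edgeR adjusted p = 0.0177). Its part in the CISH values was not tested. SOCS2 overlaps SOCS2-AS1, whose counts reached at most 22.8% of those of SOCS2 in a library and which was called in neither line (edgeR adjusted p = 0.827 in U937 and 0.147 in KG1A).

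The PIM kinases split in U937. PIM1, a kinase that phosphorylates pro-survival and cell cycle substrates, had 111, 107, 113 and 106 CPM with NEL, against 74.5, 70.5, 75.2 and 71.0 CPM with DMSO. The groups were far apart relative to their spread, and PIM1 rose 1.51-fold (log2 fold change 0.59 ± 0.04, edgeR adjusted p = 3.02e-08, odd 0.58, even 0.60). PIM2, a close relative that sustains growth of blood cells, had 28.9, 25.1, 28.0 and 23.5 CPM with NEL, against 34.0, 30.3, 35.6 and 32.5 CPM with DMSO. The highest NEL library lay just below the lowest DMSO library, and PIM2 fell by 0.32 ± 0.08 on the log2 scale (edgeR adjusted p = 0.00188, odd -0.29, even -0.36). PIM3, the third kinase of the family, had 33.1, 29.5, 34.5 and 32.5 CPM with NEL, against 59.9, 57.3, 61.4 and 51.5 CPM with DMSO. It was 1.77-fold lower (log2 fold change -0.82 ± 0.07, edgeR adjusted p = 8.85e-08, odd -0.84, even -0.80).

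**Figure D3:**
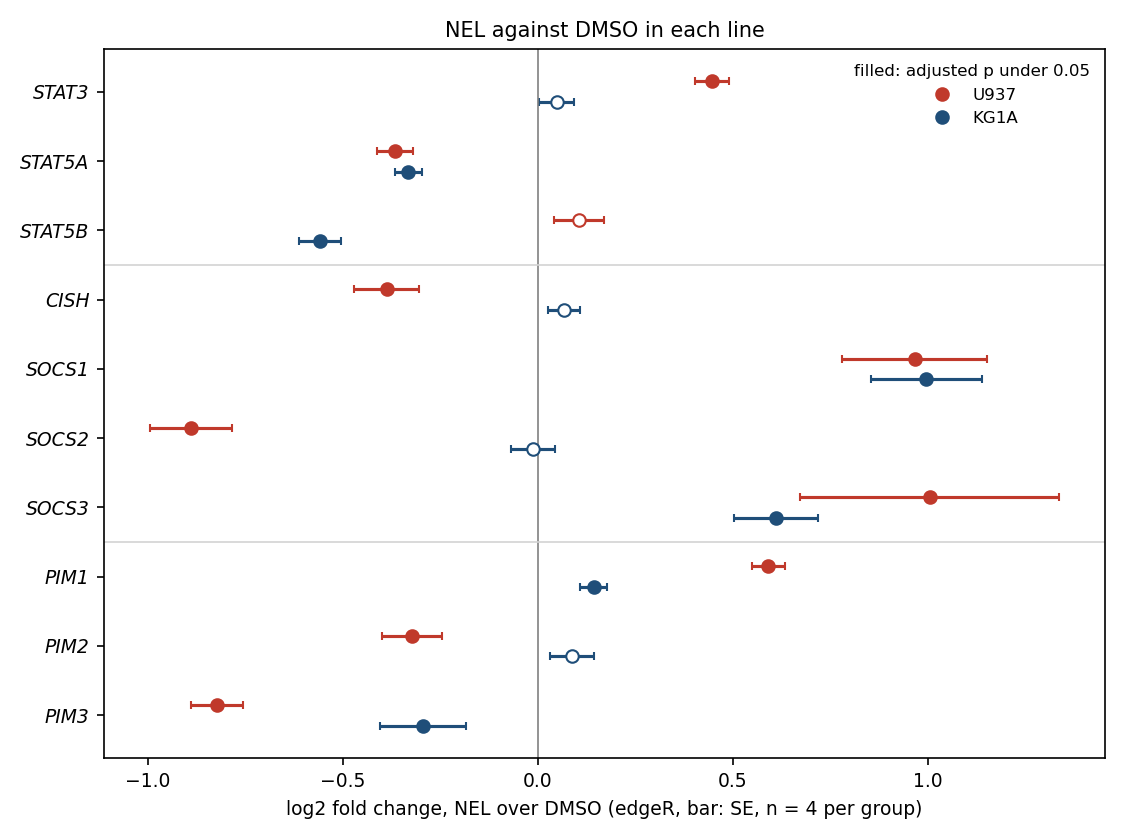
log2 fold change of NEL over DMSO (horizontal axis, edgeR, bars are the SE, n = 4 libraries per group) for the 10 genes in U937 (red) and KG1A (blue), with filled points for an adjusted p under 0.05. SOCS1 lies at 0.97 in U937 and 1.00 in KG1A, while STAT5B, SOCS2 and PIM1 lie apart in the lines.

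In KG1A, NEL raised SOCS1, SOCS3 and PIM1 and lowered STAT5A, STAT5B and PIM3, and STAT3, CISH, SOCS2 and PIM2 were not called. Thus 3 of 10 were higher and 3 lower, where 47.2% of the 14250 tested genes were called, 23.6% higher and 23.6% lower. The median over the members was 0.06, against 0.00 over all genes, and the median size 0.22 against 0.20. Libraries of the groups did not overlap for 5 of the 10, against 42.2% of all genes tested.

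Both STAT5 genes fell in KG1A. STAT5B had 111, 128, 118 and 126 CPM with NEL, against 175, 182, 163 and 189 CPM with DMSO. It was 1.47-fold lower with no overlap (log2 fold change -0.56 ± 0.05, edgeR adjusted p = 1.33e-06, odd -0.56, even -0.55). For STAT5A the libraries with NEL held 173, 173, 168 and 170 CPM, against 219, 210, 217 and 210 CPM with DMSO. The groups did not overlap (log2 fold change -0.33 ± 0.03, edgeR adjusted p = 2.36e-06, odd -0.36, even -0.30). STAT3, the most abundant of the 3 by CPM in this line, was at 315 ± 18.9 CPM with NEL and 303 ± 8.95 CPM with DMSO (mean ± SD, n = 4). The groups overlapped, at a log2 fold change of 0.05 ± 0.04 that was not called (edgeR adjusted p = 0.404, odd 0.03, even 0.07).

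The STAT5-induced inhibitors CISH and SOCS2 were not called in KG1A. CISH was at 112, 117, 111 and 107 CPM with NEL and at 111, 105, 106 and 103 CPM with DMSO (log2 fold change 0.07 ± 0.04, edgeR adjusted p = 0.197, odd 0.04, even 0.11). SOCS2 was at 31.3, 31.0, 31.2 and 31.0 CPM with NEL and at 30.0, 31.2, 30.7 and 33.1 CPM with DMSO (log2 fold change -0.01 ± 0.06, edgeR adjusted p = 0.872, odd 0.04, even -0.06). The other 2 inhibitors rose. SOCS1 had 18.7, 14.4, 18.7 and 13.9 CPM with NEL, against 9.27, 6.68, 9.95 and 6.85 CPM with DMSO, with the 2 higher values of each group in its odd-numbered libraries. It was 1.99-fold higher (log2 fold change 1.00 ± 0.14, edgeR adjusted p = 5.15e-05, odd 0.95, even 1.06). SOCS3 had 14.8, 18.4, 14.8 and 17.3 CPM with NEL, against 10.1, 12.1, 11.3 and 9.14 CPM with DMSO. No NEL library fell into the DMSO range, and the rise was 1.53-fold (log2 fold change 0.61 ± 0.11, edgeR adjusted p = 2.94e-04, odd 0.46, even 0.75).

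PIM1 had 504, 497, 507 and 499 CPM in KG1A with NEL, against 464, 437, 468 and 441 CPM with DMSO. The groups did not overlap, but the rise was small, 1.10-fold (log2 fold change 0.14 ± 0.04, edgeR adjusted p = 0.00401, odd 0.11, even 0.18). PIM3 had 12.2, 8.82, 10.1 and 10.4 CPM with NEL, against 12.9, 12.2, 14.2 and 11.3 CPM with DMSO, with overlapping groups. Its call rests on little (log2 fold change -0.29 ± 0.11, edgeR adjusted p = 0.0389). PIM3 was called in neither set alone (-0.28 and -0.30), nor when KG1A DMSO library 1, 2 or 3 or KG1A NEL library 2, 3 or 4 was left out, at edgeR adjusted p from 0.053 to 0.12. PIM2 was at 90.3 ± 6.42 CPM with NEL and 84.6 ± 5.09 CPM with DMSO, not called (log2 fold change 0.09 ± 0.06, edgeR adjusted p = 0.22, 0.09 in either set), but called with the replicate number as a block (0.09, adjusted p = 0.0283).

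The NEL effect differed between the lines for 7 of the 10 genes. In the interaction term over all 16 libraries, U937 minus KG1A, 3 were called higher and 4 lower, where 47.4% of 16117 tested genes were called, 21.1% higher and 26.3% lower. The split over all genes depends on the scaling, since DESeq2 size factors in the same edgeR test gave 4122 higher and 3483 lower, against 3404 and 4239 with TMM. The term uses the same libraries as the 2 within-line comparisons, so its values restate the difference of those effects with a test. STAT5B differed by 0.65 ± 0.09 (edgeR adjusted p = 2.21e-06), PIM1 by 0.44 ± 0.05 (edgeR adjusted p = 4.19e-07) and STAT3 by 0.39 ± 0.06 (edgeR adjusted p = 1.93e-05). On the other side stood SOCS2, at -0.89 ± 0.11 (edgeR adjusted p = 7.59e-07), PIM3, at -0.54 ± 0.13 (edgeR adjusted p = 0.00135), CISH, at -0.47 ± 0.08 (edgeR adjusted p = 9.71e-05), and PIM2, at -0.42 ± 0.10 (edgeR adjusted p = 0.00111). All 7 were called in the same direction within either set of libraries. For STAT5A (-0.04 ± 0.05, edgeR adjusted p = 0.544), SOCS1 (-0.04 ± 0.29, edgeR adjusted p = 0.963) and SOCS3 (0.38 ± 0.34, edgeR adjusted p = 0.381) no difference was called, and the errors for SOCS1 and SOCS3 are wide. Without U937 DMSO library 1 the difference for SOCS3 was 0.90 and was called (edgeR adjusted p = 0.0293).

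Ordered by level, the 4 groups separated differently from gene to gene. For STAT5A, SOCS1 and PIM1 no 2 neighbouring groups overlapped, with KG1A with DMSO highest and U937 with NEL lowest for STAT5A, and KG1A with NEL highest and U937 with DMSO lowest for SOCS1 and PIM1. For STAT3, CISH, SOCS2 and PIM2 the 2 KG1A groups overlapped at the top and the U937 groups were separate. For STAT5B and SOCS3 the 2 U937 groups overlapped at the bottom, and for PIM3 the 2 KG1A groups did. Groups without overlap were common over all genes tested. Their share was 80.6% between the lines with NEL, 81.6% between the lines with DMSO, 62.4% for NEL in U937 and 42.2% for NEL in KG1A. The share of all genes with 4 separate groups was not computed.

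The make-up of the PIM family, from RPKM within each library and so independent of the scaling between libraries, was that of a PIM1 line in KG1A and a mixed one in U937. PIM1 made up 61.8 ± 1.00% of the summed PIM RPKM in U937 with NEL, against 40.9 ± 0.93% with DMSO, and 82.0 ± 0.85% in KG1A with NEL, against 81.0 ± 0.46% with DMSO (mean ± SD, n = 4). PIM3 made up 22.1 ± 0.86% in U937 with NEL, against 39.05 ± 1.42% with DMSO, and 2.05 ± 0.26% in KG1A with NEL, against 2.74 ± 0.18% with DMSO. For PIM3 the ranges of shares with NEL and with DMSO were separate in both lines, and for PIM1 they were separate in U937 and overlapped in KG1A. The summed PIM level was 58.8 to 63.8 RPKM in U937 with NEL and 54.2 to 60.4 RPKM with DMSO, with overlap, and 207 to 215 RPKM in KG1A with NEL against 177 to 192 RPKM with DMSO. Unlike the shares, these sums depend on the scaling between libraries, and RPKM leaves out the TMM factors. In KG1A those factors were 1.01 to 1.03 with NEL and 0.971 to 0.991 with DMSO, so RPKM reads higher with NEL than CPM does. Among the 4 SOCS genes, SOCS1 took 37.7 ± 4.04% of the summed RPKM in U937 with NEL, against 19.5 ± 2.98% with DMSO, and 29.1 ± 3.75% in KG1A with NEL, against 18.5 ± 2.90% with DMSO. CISH took 40.4 ± 2.29% in U937 with NEL, against 52.9 ± 3.10% with DMSO, and 47.8 ± 1.73% in KG1A with NEL, against 57.8 ± 1.76% with DMSO. In each line neither the SOCS1 nor the CISH shares of NEL and DMSO libraries overlapped. In KG1A the lower CISH share was not a lower level, at 22.4 RPKM with NEL against 20.4 RPKM with DMSO. The summed SOCS level there was 46.9 ± 1.57 RPKM with NEL against 35.3 ± 1.58 RPKM with DMSO.

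**Figure D4:**
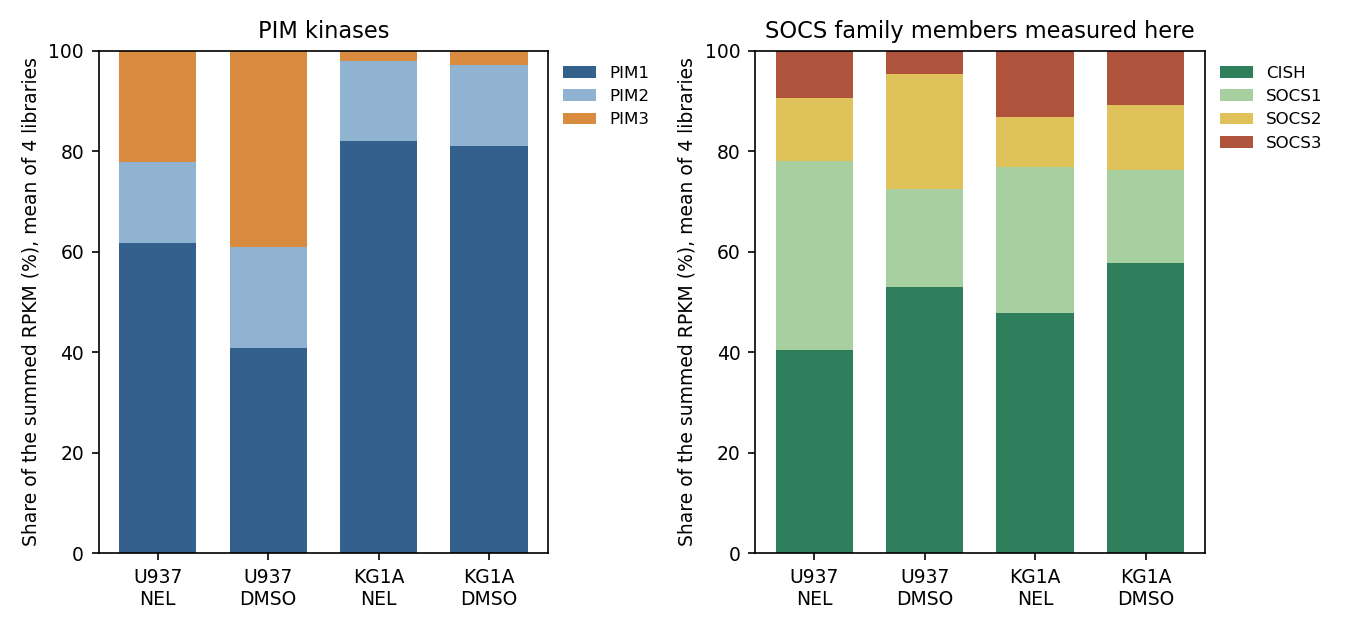
Share of the summed RPKM (vertical axes, percent, mean of 4 libraries) taken by each PIM gene (left) and each of CISH, SOCS1, SOCS2 and SOCS3 (right) in the 4 groups. In U937 PIM1 reaches 61.8% with NEL against 40.9% with DMSO, and in KG1A it is above 80% in both.

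Within the STAT genes, the level of STAT3 relative to STAT5 was higher with NEL in both lines, without a test. The ratio of STAT3 to the sum of STAT5A and STAT5B, in RPKM, was 0.427 to 0.481 in U937 with NEL, against 0.283 to 0.302 with DMSO, and 0.718 to 0.777 in KG1A with NEL, against 0.515 to 0.545 with DMSO. Neither pair of ranges overlapped. The ratio of STAT5B to STAT5A went opposite ways, at 0.899 ± 0.039 in U937 with NEL against 0.649 ± 0.064 with DMSO, and 0.632 ± 0.042 in KG1A with NEL against 0.739 ± 0.060 with DMSO. Its ranges did not overlap in either line, the nearest values in KG1A being 0.663 with NEL and 0.670 with DMSO.

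Of 88 other genes of the JAK-STAT pathway, listed by role and 87 of them in the table, 64 were tested in U937, of which 33 rose, 15 fell and 16 were not called. In KG1A 68 were tested, 29 rose, 10 fell and 29 were not called. The called share was thus 75% in U937 and 57.4% in KG1A, near the 69.3% and 47.2% of all tested genes, and is not read as particular to the pathway. Their median log2 fold change was 0.22 in U937 and 0.08 in KG1A, beside 0.00 in both over all genes. Of the cytokine receptors tested, 90.5% were called in U937 and 63.6% in KG1A, with 16 higher and 3 lower of 21 in U937 and 12 higher and 2 lower of 22 in KG1A. Over all genes tested, 34.6% were called higher in U937 and 23.6% in KG1A. The receptors were not tested as a set. In both lines those called higher included genes averaging below the filter's level (0.902 CPM over all libraries) with DMSO and above it with NEL. IL21R in U937 was such a gene, at 1.42 ± 0.25 CPM with NEL against 0.490 ± 0.21 CPM with DMSO. Such genes entered the test through the group in which they were higher. IL2RB, a receptor chain that signals through STAT5, reached 15.8 ± 1.11 CPM in U937 with NEL against 2.98 ± 0.54 CPM with DMSO (log2 fold change 2.41 ± 0.12, edgeR adjusted p = 8.39e-10, odd 2.40, even 2.42), and IL6R, the interleukin-6 receptor, fell to 171 ± 6.40 CPM against 328 ± 10.5 CPM with DMSO (-0.94 ± 0.04, edgeR adjusted p = 2.50e-10, odd -0.95, even -0.93). In KG1A the receptor that rose most under the naming rule was IL21R, at 16.2 ± 2.08 CPM with NEL against 7.03 ± 0.36 CPM with DMSO (1.20 ± 0.11, edgeR adjusted p = 8.11e-07, odd 1.40, even 0.99).

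All 4 JAK kinases rose in U937, where 34.6% of all genes tested were called higher. JAK1 rose the least there (0.22 ± 0.05, edgeR adjusted p = 0.00111). JAK2 rose the most, at 21.9 ± 2.92 CPM with NEL against 13.2 ± 0.42 CPM with DMSO (0.74 ± 0.10, edgeR adjusted p = 1.02e-05, odd 0.67, even 0.81). In KG1A, TYK2 rose (0.26 ± 0.05, edgeR adjusted p = 3.06e-04, odd 0.25, even 0.28), JAK1 fell (-0.20 ± 0.04, edgeR adjusted p = 3.05e-04, odd -0.20, even -0.19) and the other 2 were not called. STAT2, which serves interferon signalling, rose in U937 to 100.5 ± 2.09 CPM against 36.2 ± 2.83 CPM with DMSO (1.48 ± 0.06, edgeR adjusted p = 5.19e-11, odd 1.57, even 1.39). In KG1A it moved by 0.16 ± 0.05 (edgeR adjusted p = 0.0207, odd 0.13, not called, even 0.20), a call lost when KG1A DMSO library 4 (adjusted p = 0.0679) or KG1A NEL library 2 (adjusted p = 0.0716) was left out. The call was also lost with the DESeq2 test (adjusted p = 0.0553) and with libraries 1 and 3, and 2 and 4, summed (edgeR adjusted p = 0.11). STAT6, which serves interleukin-4, fell in KG1A (-0.27 ± 0.05, edgeR adjusted p = 5.79e-04, odd -0.26, even -0.28). Of the 3 other SOCS genes tested, SOCS4 rose in U937 (0.35 ± 0.05, edgeR adjusted p = 1.52e-05, odd 0.32, even 0.37) and in KG1A (0.19 ± 0.04, edgeR adjusted p = 0.00186, odd 0.21, even 0.18). SOCS5 fell in KG1A (-0.27 ± 0.06, edgeR adjusted p = 0.00282), with -0.20 (odd), not called, and -0.33 (even), and rose in U937 (0.28 ± 0.06, edgeR adjusted p = 7.47e-04, odd 0.30, even 0.26).

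Among 13 further brakes of the pathway, 4 rose and 4 fell in U937 and 3 rose and 2 fell in KG1A. The called shares of 61.5% and 38.5% were below the 69.3% and 47.2% over all genes tested. USP18, which dampens the interferon receptor, rose in U937 (1.46 ± 0.20, edgeR adjusted p = 1.77e-05, odd 1.69, even 1.32), and PIAS4, a SUMO ligase, fell (-0.32 ± 0.05, edgeR adjusted p = 7.54e-05, odd -0.28, even -0.36). In KG1A the phosphatase gene PTPN2 rose (0.20 ± 0.05, edgeR adjusted p = 0.00721), with odd 0.30, even 0.10 and no call in the even-numbered libraries, and PTPRC, the CD45 phosphatase, fell to 702 ± 13.1 CPM against 842 ± 14.95 CPM with DMSO (-0.27 ± 0.03, edgeR adjusted p = 1.68e-05, odd -0.27, even -0.26). In U937 PTPRC went the other way, at 445 ± 11.6 CPM with NEL against 195 ± 3.83 CPM with DMSO (1.20 ± 0.04, edgeR adjusted p = 1.25e-11, odd 1.19, even 1.20). Only CLCF1 of 15 ligands was tested in U937, where it fell (-1.17 ± 0.10, edgeR adjusted p = 1.01e-07, odd -1.20, even -1.15). All 4 tested in KG1A were called higher, where 23.6% of all genes tested were called higher. CSF1 (1.71 ± 0.27 CPM with NEL against 0.744 ± 0.29 CPM with DMSO) and CSF2 (1.48 ± 0.57 against 0.278 ± 0.13 CPM) had at least 10 counts in 4 of 4 NEL libraries but in 1 and 0 DMSO libraries, so they entered the test through the group in which they were higher. OSM, which signals through gp130, was at 24.4 ± 1.32 CPM with NEL against 18.6 ± 1.49 CPM with DMSO (0.39 ± 0.08, edgeR adjusted p = 6.96e-04, odd 0.41, even 0.37), and IL15 at 5.89 ± 1.09 CPM with NEL against 2.71 ± 0.50 CPM with DMSO (1.10 ± 0.18, edgeR adjusted p = 1.32e-04, odd 1.15, even 1.07). Further genes described as STAT3 or STAT5 targets went both ways, 5 up and 7 down of 19 in U937 and 8 up and 3 down of 19 in KG1A. Their called shares were 63.2% in U937 and 57.9% in KG1A, against 69.3% and 47.2% over all genes tested. CDKN1A, the gene of the cell cycle inhibitor p21, rose in both lines (2.34 ± 0.12 in U937, edgeR adjusted p = 7.46e-10, and 1.61 ± 0.16 in KG1A, edgeR adjusted p = 1.67e-06), with odd 2.44, even 2.21 in U937 and 1.56 and 1.69 in KG1A. MYC fell in U937 (-2.49 ± 0.04, edgeR adjusted p = 6.21e-14, odd -2.46, even -2.51), and VEGFA, an angiogenic factor, fell in KG1A (-0.50 ± 0.06, edgeR adjusted p = 7.79e-06, -0.50 in either set) and rose in U937, to 392.4 ± 7.04 CPM against 218 ± 6.06 CPM with DMSO (0.85 ± 0.04, edgeR adjusted p = 2.31e-10, odd 0.83, even 0.87). MYC also fell in KG1A, by a smaller amount (-0.46 ± 0.04, edgeR adjusted p = 1.53e-07, odd -0.43, even -0.47).

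**Figure D5:**
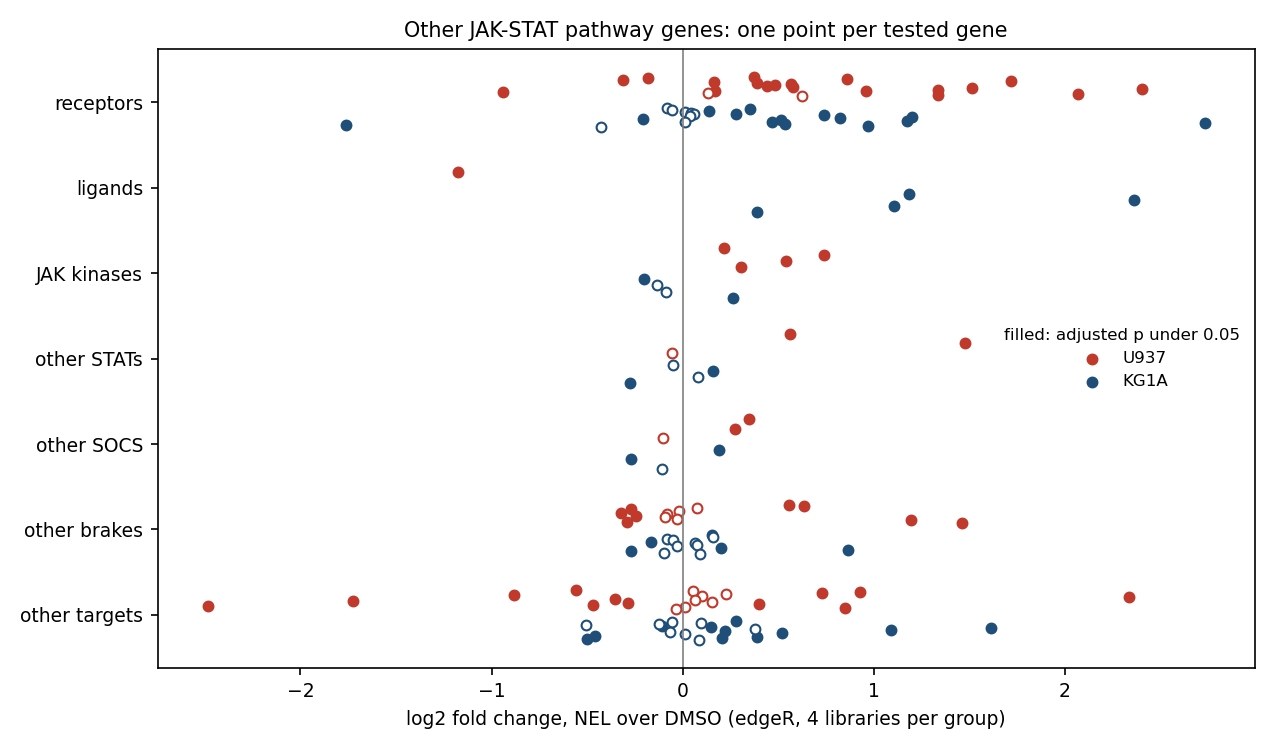
log2 fold change of NEL over DMSO (horizontal axis, edgeR, 4 libraries per group) of each tested gene of 7 lists of JAK-STAT pathway genes, in U937 (red) and KG1A (blue), with filled points for an adjusted p under 0.05. Receptors lie mostly to the right of 0 in both lines, with 16 of 21 called higher in U937 and 12 of 22 in KG1A. Over all genes tested, 34.6% were called higher in U937 and 23.6% in KG1A.

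The genes whose pattern over the 4 groups was most like that of each member were found by the root mean square difference of the centred group means of log2 CPM, over 10938 named genes that averaged 5 CPM or more. The distance is a description over 4 groups that share their libraries, and with so many genes small distances arise in any case. The closest match of all was FAM89B to STAT5A, at 0.021, followed by CCNY to STAT5A, at 0.035, and SIK3 to PIM2, at 0.036. The nearest gene to SOCS3 was IL3RA, the alpha chain of the interleukin-3 receptor, at 0.041, and the next NLRP2, at 0.061. IL3RA was at 3.37 ± 1.16 CPM in U937 with NEL, against 1.73 ± 0.48 CPM with DMSO, and at 23.8 ± 2.32 CPM in KG1A with NEL, against 16.6 ± 1.71 CPM with DMSO. INSIG1, a sterol regulator, at 0.047, and GNPDA1, at 0.089, came nearest to PIM3, and CASP10, at 0.052, and PARP9, at 0.064, to PIM1. STAT3 lay nearest to GNA15-DT (0.043) and ZNF721 (0.045), STAT5B to FNBP1 (0.047) and MCMDC2 (0.063), and CISH to ZNF268 (0.056) and ZNF420 (0.064). SOCS2 lay nearest to NECTIN1 (0.068) and CHORDC1 (0.070), and PIM2 had SNHG1 as its second neighbour (0.043). SOCS1 had no neighbour as close, with PTP4A3 at 0.135 and WARS1 at 0.153.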

How the data were processed

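Per the labels' protocols, RNA was extracted with Trizol and spin columns, and stranded poly(A) libraries came from a Kapa kit. The submitters' processing notes name bcl2fastq (2.18.0.12), TopHat2, HTSeq (0.11.2) and the build hg19 or GRCh37, with no roles. Neither the annotation nor the strand setting of the counting is given in the sources used here. The files deposited by the authors hold raw counts per gene and RPKM. Each RPKM equalled the count divided by exon length and library total to within a relative 1.86e-07 and so adds no independent evidence. Gene IDs were matched to symbols for 24496 genes; IDs without one held 2.56% of the counts, and 0 columns were left unmapped.

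The main test was the quasi-likelihood F test of edgeR 4.0.16 in R 4.3.3, with TMM factors and filterByExpr (minimum count 10, minimum total 15), fitted on all genes, with Benjamini-Hochberg adjustment at 0.05. Each comparison of 2 groups used their 8 libraries and the interaction all 16. CPM levels use 1 set of TMM factors over all libraries (0.958 to 1.04), and the SE is the log2 fold change divided by the root of the F statistic. Fits were checked on simulated counts of independent libraries, with few genes changed and without odd and even sets. That check does not bear on p-values in data with such sets. Members, lists, tests and alternatives were chosen with earlier results of these data known. Besides the members, the text names, per pathway list and line, the called gene with the largest change each way among those with non-overlapping groups and at least 5 CPM in the higher group, and the 2 genes of most similar pattern per member. Libraries of a group with both odd or both even numbers differed least, with a mean chi-square per gene of 1.26 to 1.98 against 3.88 to 8.47 for the others, but no pair agreed within sampling noise. Each was counted as 1 sample, which does not show that they are separate cultures.

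The labels number the libraries 1 to 4 in every group. Deviations from the group means correlated at 0.289 to 0.369 between same-numbered NEL and DMSO libraries, so the numbers were treated as pairs in an alternative with a replicate block. Libraries of the other parity correlated at -0.28 or below, so the pairing follows the odd and even sets. Further alternatives were DESeq2 1.42.0 or its size factors, upper quartile factors, no or a stricter filter (1 CPM in 4 libraries), limma-voom and limma-trend (limma 3.58.1) on log2(RPKM + 0.5) or log2(RPKM + 0.1), an adjusted p under 0.01, 1 model of all libraries, an odd-even covariate, either set alone, libraries 1 and 2, and 3 and 4, summed, and each library left out. Sums of libraries 1 and 3, and 2 and 4, were added after seeing the data. Figures used Python 3.11.15 and matplotlib 3.10.9. Promoter windows are from RefSeq on GRCh38.p14; coordinates of genes are those of the deposited tables. A few marker and pathway genes are not reported here by name.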

Additional observations from a re-analysis of the deposited data

Results flagged for a closer look

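The NEL effect differed between U937 and KG1A, by the edgeR interaction test, for 7 of the 10 genes. Over all 16117 genes tested, 47.4% were called by the same test. The log2 difference, U937 minus KG1A, was 0.39 for STAT3, 0.65 for STAT5B, 0.44 for PIM1, -0.47 for CISH, -0.89 for SOCS2, -0.42 for PIM2 and -0.54 for PIM3. The sign of the effect itself was opposite in the lines for STAT5B, CISH and PIM2, each called in 1 line and not in the other. Each of the 40 groups of 4 libraries (10 genes in 4 groups) was examined for a library apart from the other 3, and 0 passed Dixon's critical gap, where about 1 in 20 would by chance.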

How the results depend on the processing

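Of 50 member comparisons, 40 kept their direction and their side of the threshold under all 24 alternatives (31 for the interaction), and 1225 of 1270 single recalculations did. The replicate block changed the call of STAT5B in U937 (0.107, adjusted p = 0.0285) and PIM2 in KG1A (0.088, adjusted p = 0.0283). It changed no other call of a member, and none of a pathway gene in the line where the naming rule picked it. Other calls named in the text were not refitted with the block. Called lower in KG1A were 2062 genes with libraries 1 and 3, and 2 and 4, summed, against 3362, where PIM1 (adjusted p = 0.106) and PIM3 (0.12) were not called. Limma-trend on RPKM called 4106 genes higher and 2263 lower in KG1A (4093 and 2250 with the smaller pseudocount), or 64.5% higher, against 3367 and 3362, and added CISH (0.13, adjusted p = 0.0184). For the interaction, 3404 and 4239 genes were called higher and lower, against 4122 and 3483 with DESeq2 size factors, 3993 and 3635 with upper quartile factors and 4015 and 3333 with the DESeq2 test. PIM3 in KG1A was not called by DESeq2 (adjusted p = 0.0632) or limma-trend (0.0945 and 0.0935).

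Signs reversed in uncalled values only. SOCS2 in KG1A was 0.049 and 0.054 with limma-trend, 0.040 in odd-numbered libraries and ran from -0.034 to 0.016 with a library left out. In the interaction, STAT5A was 0.043 with DESeq2 size factors and the DESeq2 test and 0.027 with upper quartile factors. SOCS1 was 0.046, 0.050 and 0.029 under the same settings, 0.143 in odd-numbered libraries, and ran from -0.15 to 0.078 with a library left out. SOCS3 was -0.0035 with limma-trend at a pseudocount of 0.5. The causes were not tested. SOCS3 in U937 rests on 5 to 30 counts per library.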
